A study of Mus musculus with 6 samples.

Results

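The smooth muscle and myofibroblast contractile genes examined here were 10 genes chosen by symbol, Acta2, Actg2, Myl9, Myh11, Tpm1, Tpm2, Cnn1, Tagln, Cald1 and Myocd, out of 23420 genes in the deposited count table. All 10 had at least 3 reads in at least 1 library. Polyadenylated RNA was sequenced from bone marrow-derived mesenchymal stromal cells (MSCs), the adherent cells that grow out of flushed femurs of female C57BL/6 mice aged 6 to 8 weeks. The 3 libraries labelled Ctl MSC came from MSCs that carried the empty AP2 retroviral construct with the eGFP marker, and the 3 labelled MSC-TPr came from MSCs that carried the same construct with the murine thymoproteasome (TPr) subunits β1i (Psmb9), β2i (Psmb10) and β5t (Psmb11). Both groups were therefore transduced, cultured cells, and such a bulk culture holds transduced cells and any other cells that adhered. The study asked what expression of the TPr does to MSCs, and the comparison below asks how the contractile genes differed between the labels.

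Before the results, the labels and libraries were checked. The 6 libraries held 16158756 to 22158887 reads on genes, and 3 reads corresponded to 0.139 to 0.181 CPM (reads scaled to a common effective library size). Psmb10 reached 27.8, 8.81 and 8.38 CPM in Ctl MSC 1 to 3 against 8.97, 17.3 and 15.2 CPM in MSC-TPr 1 to 3, higher with the TPr label in libraries 2 and 3 (1.89-fold, adjusted p = 0.00547, edgeR) but not in libraries 1. Psmb9 was also highest in Ctl MSC 1, and Psmb11 had 1 to 6 reads per library, so each direction given here is one between libraries labelled MSC-TPr and libraries labelled Ctl MSC. The first principal component, 58.5% of the variance, placed Ctl MSC 1 with MSC-TPr 2 and 3, and MSC-TPr 1 with Ctl MSC 2 and 3. Cell division genes, averaged over 20 genes as log2 CPM, followed the same split, at 6.47 in Ctl MSC 1, 6.36 in MSC-TPr 2 and 6.46 in MSC-TPr 3 but 3.12 in Ctl MSC 2, 3.09 in Ctl MSC 3 and 3.19 in MSC-TPr 1. Both libraries numbered 1 thus stood apart from the other libraries of their own label, and the contractile genes are given over all 6 libraries and over the 4 libraries numbered 2 and 3. The second component did follow the labels, at −48.9, −20.4 and −19.6 in Ctl MSC 1 to 3 and 49.1, 24.2 and 15.6 in MSC-TPr 1 to 3. What sets the libraries numbered 1 apart was not tested. Of 7 MSC markers, 6 had 3 or more reads in a library, and Thy1 had 1 read in all.

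Smooth muscle cells shorten when myosin filaments pull on actin filaments, and myofibroblasts are fibroblast-like cells that build a similar apparatus during wound repair and fibrosis. Contraction is switched on when a kinase phosphorylates the regulatory light chain of myosin, while tropomyosin, caldesmon and calponin lie along the actin filament and modulate it. Many of the genes are controlled by serum response factor (SRF), which binds the CArG box, together with the coactivator myocardin or its relatives. MSCs in culture, which share features with pericytes and fibroblasts, are known to express Acta2 and other genes of this set.

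The promoters of 2 genes that moved together across the libraries, Acta2 and Myl9, are shown first with that of Cnn1, which had the widest range. RefSeq promoter sequences (GRCm38.p6) were matched for 6 of the 10 genes, and the 250 bases before each start were searched on both strands for the CArG box (CC, 6 bases of A or T, then GG), for a CArG-like match that allows 1 other base among these 6, and for CATTCC, the core of the sites that TEAD factors bind. The first was found in 1.47% of 32851 promoters, the second, which includes the first, in 8.59%, and the third in 12.6%. Capitals mark the CArG box and CArG-like matches, and all sequences read 5′ to 3′ on the strand of the gene.
Acta2 site 84 to 75 bases before the start, chr19:34255438-34255467, minus strand: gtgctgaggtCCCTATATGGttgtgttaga
Acta2 site 34 to 25 bases before the start, chr19:34255388-34255417, minus strand: cgtctttgctCCTTGTTTGGgaagcgagtg
Myl9 promoter, chr2:156775214-156775419, plus strand: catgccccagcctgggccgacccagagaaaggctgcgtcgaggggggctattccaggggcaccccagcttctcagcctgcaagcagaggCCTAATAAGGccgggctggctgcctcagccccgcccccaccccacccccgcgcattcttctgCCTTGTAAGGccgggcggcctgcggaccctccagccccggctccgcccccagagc
Cnn1 promoter, chr9:22099003-22099215, plus strand: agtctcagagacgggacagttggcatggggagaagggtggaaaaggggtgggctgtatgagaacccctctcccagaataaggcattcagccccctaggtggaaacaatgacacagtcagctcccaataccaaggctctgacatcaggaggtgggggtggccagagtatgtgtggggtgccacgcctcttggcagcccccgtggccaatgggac
Both Acta2 matches are CArG-like, and its window also holds CATTCC on the other strand, 146 to 141 bases before the start. In Myl9, the match from 161 to 152 bases before the start is a CArG box and the one from 99 to 90 is CArG-like. No match lies in the Cnn1 window, nor in that of Tpm2, and those of Tpm1 and of 1 of the Cald1 promoters hold CATTCC alone. Positions count from the RefSeq start. The sequences printed for Myl9 and Cnn1 are the 206 and 213 bases of the 250 searched that precede the annotated first exon, so they end before that start. A match is a stretch of letters and was not tested as a binding site.

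Over all 6 libraries, no contractile gene was called different between the labels, and for most of them the libraries within a label lay further apart than the means of the labels. Of the 10 genes, 8 passed edgeR's filter on low counts (Myh11 and Myocd did not), and 0 of these 8 met both limits, a log2 fold change beyond 0.5 either way with an adjusted p under 0.05, in edgeR's quasi-likelihood test. The background was small, with 0.0251% of 11974 genes called higher and 0.401% called lower. At an unadjusted p under 0.05, edgeR gave 0 of the 8 (15% of all genes). DESeq2, run on all 10 without this filter, called 0 (4.89% of all genes). Unadjusted, DESeq2 gave 2, Actg2 and Myocd, and its unadjusted share over all genes was not counted. The median log2 fold change (MSC-TPr minus Ctl MSC) of the 8 was 0.58, against 0.01 over all genes tested, and its median standard error was 0.69.

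Over the 4 libraries numbered 2 and 3, where the libraries of each label lay close together, 7 contractile genes rose in the libraries labelled MSC-TPr: Acta2, Actg2, Myl9, Tpm1, Tpm2, Cnn1 and Tagln. Their folds ran from 2.07 for Acta2 to 9.65 for Cnn1. In this fit 9 of the 10 genes were tested, Myocd, which passed the filter here through its Ctl MSC libraries, was lower, and Cald1 did not pass (log2 fold change −0.30, adjusted p = 0.0928, edgeR). The 7 higher calls were 77.8% of the 9, beside 20.6% of 12122 genes called higher and 19.4% called lower, and the median log2 fold change of the 9 was 1.36. Cell division genes differed in the same direction between these libraries, with all 20 called higher. The labels and the cell division split coincide in these 4 libraries, so their parts in the result cannot be told apart. The libraries numbered 1 were left out for the split described above. Library pairs were also compared by a chi-square per gene, which is larger the more their counts differ beyond counting error. It was 4.76 for Ctl MSC 2 and 3, 50 for MSC-TPr 2 and 3, and 65.1 to 205 for all other pairs. Ctl MSC 2 and 3 were thus far closer than any other pair, and this fit takes part of its spread from them. For these reasons the p-values over libraries 2 and 3 are given as values only. In a bulk culture, a different number of cells of a contractile type and a different amount of RNA of these genes per cell cannot be told apart.

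The smooth muscle actins come first, as the thin filaments of the apparatus. Acta2, which encodes α-smooth muscle actin, the usual marker of myofibroblasts, lies on chromosome 19 of mm10 (34241090-34255590, minus strand). It had 567, 471 and 512 CPM in Ctl MSC 1 to 3, against 115, 978 and 1056 CPM in MSC-TPr 1 to 3. The libraries of Ctl MSC were alike, 2 of the MSC-TPr libraries lay above all of them, and MSC-TPr 1 lay far below, so that the groups overlapped. The means were 517 ± 48.1 and 716 ± 522 CPM (SD, n = 3 each), and the log2 fold change of 0.47 (SE 0.708) did not pass edgeR's test (adjusted p = 0.804). That fit compares mean counts, whereas the mean of log2 CPM was 9.01 ± 0.13 in Ctl MSC and 8.94 ± 1.82 in MSC-TPr, so the direction of the Acta2 difference over all 6 libraries turns with the scale. Within the MSC-TPr label the highest library was 9.19 times the lowest, compared with 1.2 within Ctl MSC. Between libraries 2 and 3 of each label, Acta2 rose 2.07-fold, from 492 ± 29.1 to 1017 ± 55.1 CPM (SD, n = 2 each), with an adjusted p of 0.00182 in edgeR.

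Actg2 encodes γ-smooth muscle actin, the form typical of gut and other visceral muscle (chromosome 6, 83512905-83536265, minus strand). Its level was 96.6, 68.7 and 77.4 CPM in Ctl MSC 1 to 3 and 53.8, 250 and 232 CPM in MSC-TPr 1 to 3. MSC-TPr 1 was again the lowest of all 6, with the other MSC-TPr libraries well above any Ctl MSC library. The log2 fold change was 1.14 (SE 0.538, adjusted p = 0.38, edgeR) over all 6 libraries. Between libraries 2 and 3 of each label, Actg2 rose 3.31-fold, from 73 ± 6.15 to 241 ± 12.5 CPM, with an adjusted p of 0.000337 in edgeR.

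The 2 smooth muscle actins kept their order in each library, but not their proportion. For every 100 reads on Acta2, Actg2 had 17.0, 14.6 and 15.1 reads in Ctl MSC 1 to 3 and 46.8, 25.6 and 22.0 reads in MSC-TPr 1 to 3. The proportion was thus higher in each library labelled MSC-TPr than in any labelled Ctl MSC, including the libraries numbered 1. Its log2 was −2.69 ± 0.118 in Ctl MSC and −1.75 ± 0.576 in MSC-TPr (SD, n = 3 each), a 1.91-fold difference with an exact two-sided permutation p of 0.1, the smallest that 3 against 3 libraries allow. This pair was singled out after its values were seen. Of the 28 ratios between tested contractile genes, 3 separated the labels, all with Actg2 (to Acta2, Myl9 and Tpm1). A ratio with no tie to the labels would separate them with a probability of 0.1, so 3 of 28 is not read as particular to Actg2. Among all other tested genes the ratio to Acta2 was higher in every MSC-TPr library for 1.09% and lower for 1.37%. That share was not counted for ratios to Myl9 or Tpm1. The coding sequences of the actins are alike. In Acta2, 0 of 1936 stretches of 100 bases occur in a transcript of another gene, and in Actg2 0 of 1234. Near matches and shorter stretches were not searched, so the proportion is uncertain to that extent.

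The myosin genes gave a light chain that varied with the actins and a heavy chain near the detection limit. Myl9 encodes the regulatory light chain of smooth muscle myosin, the substrate of myosin light chain kinase (chromosome 2, 156775420-156781658, plus strand). Its level was 78.5, 50.8 and 49.9 CPM in Ctl MSC 1 to 3 and 17.9, 127 and 131 CPM in MSC-TPr 1 to 3. As with Acta2, MSC-TPr 2 and 3 lay above every Ctl MSC library and MSC-TPr 1 below every one. Over all 6 libraries its log2 fold change was 0.63 (SE 0.672, adjusted p = 0.713, edgeR). In libraries 2 and 3, Myl9 rose 2.58-fold, from 50.3 ± 0.657 to 129 ± 2.94 CPM, with an adjusted p of 0.000463 in edgeR.

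Myh11, the smooth muscle myosin heavy chain and the most restricted marker of mature smooth muscle, had 0, 2 and 5 reads in Ctl MSC 1 to 3 and 3, 2 and 1 reads in MSC-TPr 1 to 3 (chromosome 16, 14194535-14291372, minus strand). These values are at or around the limit of 3 reads, so no fold is given. Myh11 made up at most 0.0308% of the CPM per kb of exon that Myh11 shared with the non-muscle heavy chains Myh9 and Myh10. A difference in Myh11 was not detectable at this depth.

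The tropomyosins, which wind along the actin filament, had a high Ctl MSC 1. Tpm1 (chromosome 9, 67022590-67049406, minus strand) measured 891, 342 and 359 CPM in Ctl MSC 1 to 3 and 201, 732 and 771 CPM in MSC-TPr 1 to 3. The highest library of all was Ctl MSC 1 and the lowest MSC-TPr 1, which left nearly equal means of 530 ± 312 and 568 ± 319 CPM (log2 fold change 0.10, SE 0.594, adjusted p = 0.954, edgeR). The direction of the Tpm1 difference turned, to as low as −0.18, when any 1 of Ctl MSC 2, Ctl MSC 3, MSC-TPr 2 and MSC-TPr 3 was left out. Tpm2 (chromosome 4, 43514711-43523765, minus strand) measured 214, 58.0 and 62.7 CPM in Ctl MSC against 39.5, 223 and 221 CPM in MSC-TPr. Here Ctl MSC 1 was level with MSC-TPr 2 and 3, and the log2 fold change of 0.53 (SE 0.765) had an adjusted p of 0.796 in edgeR. In libraries 2 and 3, Tpm1 rose 2.15-fold (adjusted p = 0.00126) and Tpm2 rose 3.68-fold (adjusted p = 0.000205) in edgeR's test.

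Cnn1, which encodes calponin 1, an actin-binding inhibitor of myosin's ATPase and a marker of contractile smooth muscle, covered the widest range (chromosome 9, 22099216-22109630, plus strand). Its libraries gave 29.5, 4.38 and 5.41 CPM in Ctl MSC against 0.72, 42.5 and 51.7 CPM in MSC-TPr. The highest MSC-TPr library was 71.8 times the lowest, and Ctl MSC 1 was 6.75 times Ctl MSC 2. The log2 fold change of 1.27 had the largest standard error of the 8 genes, 1.32 (adjusted p = 0.703, edgeR). Cnn1 rose 9.65-fold in libraries 2 and 3, from 4.89 ± 0.725 to 47.1 ± 6.46 CPM, with an adjusted p of 0.000148 in edgeR.

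Tagln encodes transgelin (SM22α), a calponin-related actin-binding protein that appears early in smooth muscle differentiation (chromosome 9, 45929619-45936058, minus strand). It gave 86.0, 42.6 and 50.0 CPM in Ctl MSC against 12.4, 169 and 134 CPM in MSC-TPr, with MSC-TPr 1 lowest and MSC-TPr 2 and 3 above every Ctl MSC library. The log2 fold change was 0.82 (SE 0.823, adjusted p = 0.694, edgeR) over all 6 libraries. Tagln rose 3.27-fold in libraries 2 and 3, from 46.3 ± 5.20 to 151 ± 24.8 CPM (adjusted p = 0.000823, edgeR). Exons of Pcsk7 and Gm48529 on the opposite strand cover part of Tagln, 33.2% of its stretches of 100 bases, and whether reads were counted by strand is not given in the sources used here. Pcsk7 itself ranged from 14.1 to 27.6 CPM, and none of the other contractile genes shares exons with another gene.

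Cald1, which encodes caldesmon, an actin- and calmodulin-binding inhibitor made in both smooth muscle and non-muscle forms, was the exception among the well-expressed genes (chromosome 6, 34598500-34775473, plus strand). It gave 1147, 1512 and 1524 CPM in Ctl MSC against 1379, 1268 and 1197 CPM in MSC-TPr. The lowest library was Ctl MSC 1, the highest Ctl MSC 3, and the whole span within MSC-TPr was 1.15-fold. The log2 fold change was −0.12 (SE 0.186, adjusted p = 0.806, edgeR).

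Myocd, the gene of myocardin, was the only one of the 10 whose libraries separated by label, at very low counts. It had 6, 15 and 13 reads in Ctl MSC 1 to 3 and 0, 2 and 6 reads in MSC-TPr 1 to 3, which is 0.363, 0.801 and 0.717 against 0, 0.118 and 0.278 CPM. In CPM every library labelled Ctl MSC was above every library labelled MSC-TPr, but MSC-TPr 1 and 2 lay under the limit of 3 reads, and Ctl MSC 1 and MSC-TPr 3 had 6 reads each and differed by library size alone. Of the 8 genes that passed the filter 0 separated by label, compared with 22.6% of all genes tested. Without the filter, edgeR gave Myocd a log2 fold change of −2.13 (SE 0.869, adjusted p = 0.371), and DESeq2 gave −2.20 (adjusted p = 0.264). In libraries 2 and 3 its log2 fold change was −1.84 (SE 0.508), with an adjusted p of 0.0288 in edgeR and 0.166 in DESeq2. Myocd entered that edgeR test through its 15 and 13 reads in Ctl MSC 2 and 3, so this p is given as a value only.

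**Figure D1:**
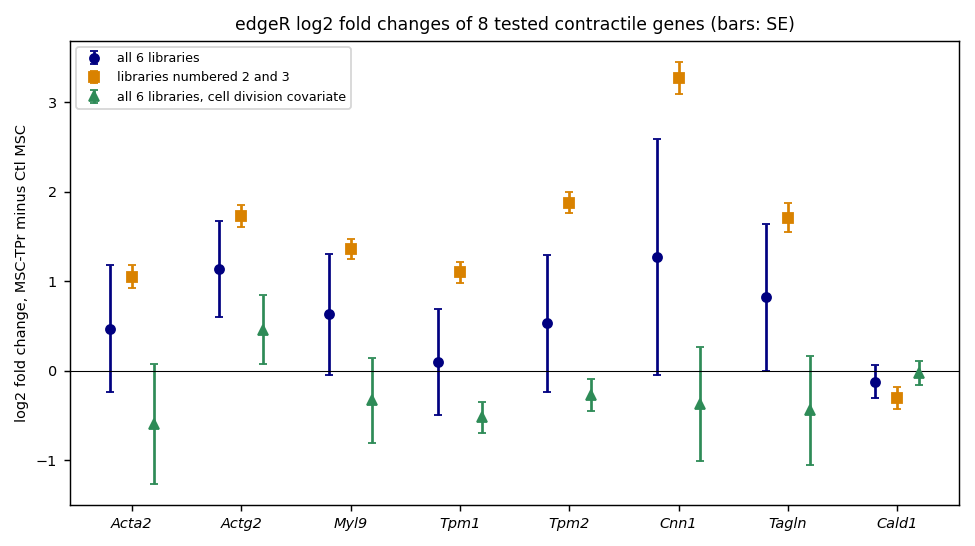
Log2 fold change (y axis, MSC-TPr minus Ctl MSC, edgeR) of the 8 contractile genes that passed the filter (x axis), with bars of 1 standard error, for all 6 libraries (blue circles), the 4 libraries numbered 2 and 3 (orange squares) and all 6 libraries with the cell division level as a covariate (green triangles). Blue values run from −0.12 to 1.27, orange from −0.30 to 3.27 and green from −0.59 to 0.46.

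Across the 6 libraries the contractile genes kept a common order that did not follow the labels. In 7 of the 8 tested genes, all but Cald1, MSC-TPr 1 was the lowest library, which held for 22.4% of all genes tested. In the same 7, Ctl MSC 1, MSC-TPr 2 and MSC-TPr 3 all lay above Ctl MSC 2 and 3, which together with the low MSC-TPr 1 held for 10.8% of all genes. The cell division genes split the libraries the same way, except that MSC-TPr 1 was level with Ctl MSC 2 and 3 for them and below for the contractile genes. With this cell division level as a covariate, 0 of the 8 were called by edgeR, beside 4.78% of genes called higher and 7.37% lower, the median log2 fold change was −0.35, and 6 of the genes turned from positive to negative. Actg2 stayed positive at 0.46 (adjusted p = 0.444, edgeR). Whether cell division and the contractile genes are linked in these cells was not tested.

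**Figure D2:**
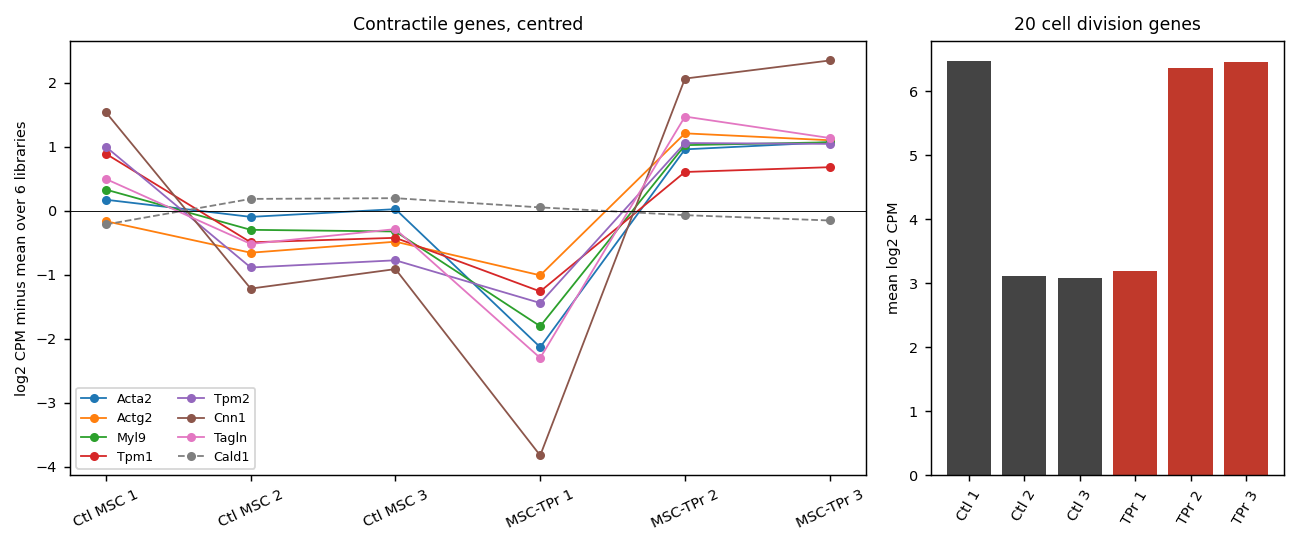
Left, log2 CPM of each of the 8 tested contractile genes minus its mean over the 6 libraries (y axis) by library (x axis), Cald1 dashed. Right, mean log2 CPM of 20 cell division genes (bars from 0; grey Ctl MSC, red MSC-TPr), which is between 3.09 and 3.19 in Ctl MSC 2, Ctl MSC 3 and MSC-TPr 1 and between 6.36 and 6.47 in the others.

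Levels were compared between genes as CPM per kb of exon. In Ctl MSC the order was Acta2 at 235 ± 21.9, Cald1 at 116 ± 17.8, Tpm1 at 81.8 ± 48.1, Actg2 at 52.0 ± 9.18, Myl9 at 51.4 ± 14.0, Tpm2 at 38.4 ± 30.6, Tagln at 30.0 ± 11.7 and Cnn1 at 4.79 ± 5.21 CPM per kb (SD, n = 3), with Myocd at 0.0976 and Myh11 at 0.0168. Acta2 stood above Cald1 by more than their spread, while from Cald1 down to Tagln each neighbour lay within the spread of the next. In MSC-TPr, Acta2 again led at 326 ± 238 and Actg2 stood at 115 ± 69.8, next to Cald1 at 106 ± 7.63 CPM per kb. Cald1 has many exons that no single transcript holds together, and by the length of the longest coding transcript its Ctl MSC level was 292, above Acta2 at 254 CPM per kb.

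The contractile genes were minor parts of their families, apart from Acta2 within the sum of Acta2 and Actg2, and each share below was lowest in MSC-TPr 1. Counts are per gene and do not tell transcript forms of a gene apart. Acta2 and Actg2 together made up 11.5%, 14.7% and 15.2% of the CPM per kb of 6 actin genes in Ctl MSC 1 to 3 and 7.40%, 21.2% and 22.1% in MSC-TPr 1 to 3. MSC-TPr 2 and 3 exceeded every Ctl MSC library and MSC-TPr 1 fell short of all of them. Tagln, set against its non-muscle relative Tagln2, held 22.1%, 26.6% and 27.4% in Ctl MSC and 12.4%, 41.4% and 35.4% in MSC-TPr. Myl9 held 19.8%, 18.7% and 16.8% of the 3 regulatory light chains in Ctl MSC and 6.46%, 23.5% and 28.3% in MSC-TPr, an order like that of the actins. By the length of the longest coding transcript, these shares were 12.9%, 12.1% and 10.8% against 3.97%, 15.5% and 19.1%. Myl12a and Myl12b share exons on the same strand, so reads on them may have been left out by the counting. For Cnn1 among 3 calponins the shares were 3.46%, 0.938% and 1.10% against 0.236%, 5.91% and 6.69%. Tpm1 and Tpm2 differed from the rest in that Ctl MSC 1 was highest, at 23.3% of the 4 tropomyosins, with 16.0% in both other Ctl MSC libraries and 12.5%, 19.4% and 20.7% in MSC-TPr. The share of Acta2 in the sum of Acta2 and Actg2 was the one that separated the labels, at 80.6%, 82.9% and 82.4% against 60.2%, 73.5% and 76.3%, the same contrast as in the reads above.

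**Figure D3:**
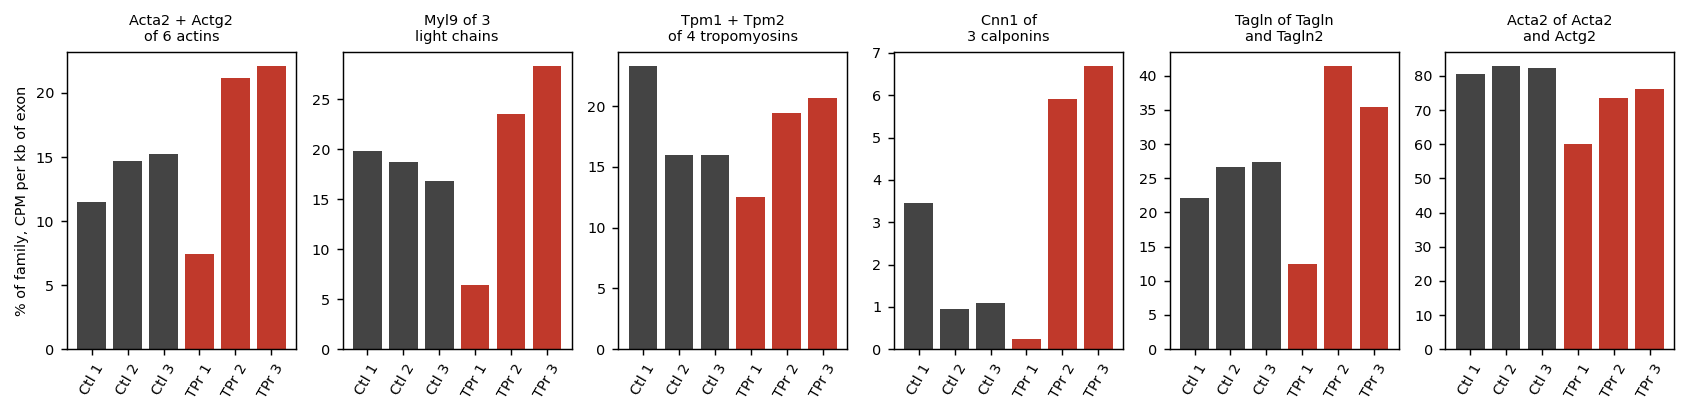
Share of the contractile genes in their gene family (y axis, % of the family's summed CPM per kb of exon, from 0) in the 6 libraries (x axis; grey Ctl MSC, red MSC-TPr), 1 bar per library. MSC-TPr 1 is lowest in every panel, and only in the last panel, Acta2 in the sum of Acta2 and Actg2, do all Ctl MSC bars exceed all MSC-TPr bars.

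The accessory genes of contraction, 22 genes for kinases, phosphatase subunits, adaptors and anchoring proteins, had 18 that passed the filter. None of the 18 was called by edgeR over all 6 libraries. At an unadjusted p under 0.05, edgeR gave 2, Mylk and Pdlim5 (15% of all genes). DESeq2 called 1, Mylk (4.89% of all genes). In libraries 2 and 3, 5 rose (27.8%) and 2 fell, near the 20.6% and 19.4% of all genes. Mylk encodes myosin light chain kinase, which phosphorylates Myl9 (chromosome 16, 34745210-35002420, plus strand). It measured 108, 61.9 and 61.6 CPM in Ctl MSC 1 to 3 and 6.26, 10.6 and 20.3 CPM in MSC-TPr 1 to 3. Each MSC-TPr library was below each Ctl MSC library, the reverse of Myl9 in MSC-TPr 2 and 3. The log2 fold change was −2.64 (SE 0.481), with an adjusted p of 0.0877 in edgeR, 9.38e-06 in DESeq2 and 0.00324 in edgeR over libraries 2 and 3.

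Other accessory genes that separated by label were Pdlim5, Ppp1r12a and Rock1, which with Mylk makes 22.2% of the 18, level with the 22.6% of all genes. Pdlim5, a PDZ and LIM domain protein at actin anchoring sites, had 144, 191 and 192 CPM in Ctl MSC against 141, 116 and 121 CPM in MSC-TPr (log2 fold change −0.48, adjusted p = 0.279, edgeR), and fell in libraries 2 and 3 (−0.69, adjusted p = 0.00439, edgeR). Ppp1r12a, the myosin-binding subunit of the phosphatase that removes phosphate from the light chain, had means of 126 ± 3.84 and 100 ± 17.1 CPM (log2 fold change −0.34, adjusted p = 0.4, edgeR). Rock1, a kinase that inhibits this phosphatase, had 133, 137 and 133 CPM in Ctl MSC against 145, 138 and 153 CPM in MSC-TPr (log2 fold change 0.11, adjusted p = 0.723, edgeR). In Ctl MSC 2 against MSC-TPr 2, Rock1 was separated by about 1 CPM.

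Among 14 non-muscle cytoskeleton genes, all tested, edgeR called 0 over all 6 libraries. It gave 1 at an unadjusted p under 0.05 (15% of all genes), and DESeq2 called 1, Myh10 (4.89% of all genes). In libraries 2 and 3 there were 9 that rose (64.3%, against 20.6% of all genes) and 1 that fell (19.4% of all genes fell). The median log2 fold change of the list in libraries 2 and 3 was 0.63, compared with 1.36 for the contractile genes. Myh10, a non-muscle myosin heavy chain (chromosome 11, 68691559-68816632, plus strand), had 180, 138 and 131 CPM in Ctl MSC against 35.1, 52.0 and 86.5 CPM in MSC-TPr. All MSC-TPr libraries lay below all Ctl MSC libraries (log2 fold change −1.37, SE 0.342), with an adjusted p of 0.171 in edgeR, 0.0123 in DESeq2 and 0.0203 in edgeR over libraries 2 and 3. Myl12b, a regulatory light chain of non-muscle myosin, had means of 51.4 ± 12.0 and 39.4 ± 3.83 CPM, also without overlap (adjusted p = 0.438, edgeR). Myh10 and Myl12b were the only genes of the list that separated by label, 14.3% of it against 22.6% of all genes tested.

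The genes that control the contractile program, 14 in all with 13 tested, included SRF itself and the myocardin-related factors. EdgeR called 0 over all 6 libraries. It gave 1 at an unadjusted p under 0.05, Hey2 (15% of all genes), and DESeq2 called 1, Hey2 (4.89% of all genes). In libraries 2 and 3 there were 2 that rose (15.4%) and 3 that fell, near the 20.6% and 19.4% of all genes. Srf had 55.6, 71.2 and 74.4 CPM in Ctl MSC against 59.4, 80.5 and 95.3 CPM in MSC-TPr, with a log2 fold change of 0.22 (adjusted p = 0.684, edgeR) and overlapping groups. The myocardin-related factors Mkl1 (log2 fold change 0.25) and Mkl2 (−0.42) overlapped as well, although Mkl2 fell in libraries 2 and 3 (−0.61, adjusted p = 0.0213, edgeR). Hey2, a repressor downstream of Notch that acts in vascular smooth muscle, had 0.363, 1.55 and 1.54 CPM in Ctl MSC against 2.49, 6.57 and 5.24 CPM in MSC-TPr. All MSC-TPr libraries were higher (log2 fold change 2.04, SE 0.619), with an adjusted p of 0.218 in edgeR, 0.0305 in DESeq2 and 0.00198 in edgeR over libraries 2 and 3. Hey2 alone separated by label, 7.69% of the 13 tested against 22.6% of all genes. Tcf21 was at 0 reads in each library.

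**Figure D4:**
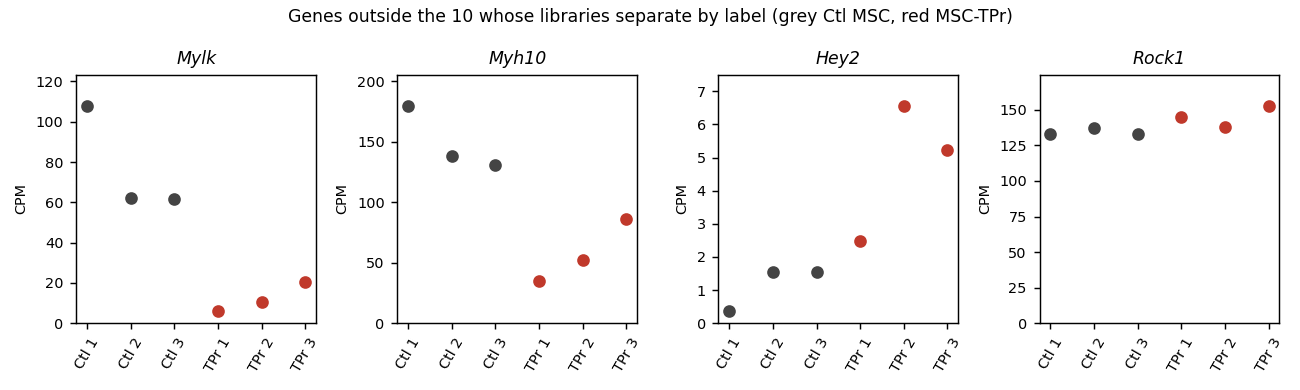
CPM (y axis, from 0) of Mylk, Myh10, Hey2 and Rock1 in the 6 libraries (x axis; grey Ctl MSC, red MSC-TPr). Mylk and Myh10 are lower, and Hey2 and Rock1 higher, in each MSC-TPr library than in any Ctl MSC library, with Rock1 apart by about 1 CPM at the closest.

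Markers of other cells were read beside the contractile genes. Of 7 pericyte and mural cell markers, 6 had 3 or more reads in a library, and their summed level was 261 to 333 CPM in Ctl MSC against 130 to 317 CPM in MSC-TPr, lowest in MSC-TPr 1. Nearly all of it was Pdgfrb, a growth factor receptor also made by fibroblasts, at 258 to 328 CPM in Ctl MSC and 125 to 296 CPM in MSC-TPr, and of the other markers Notch3, Abcc9, Cspg4 and Rgs5 were not lowest in MSC-TPr 1. Notch3, a receptor of vascular mural cells, had 0.725, 1.87 and 1.54 CPM in Ctl MSC against 4.48, 2.66 and 10.7 CPM in MSC-TPr, without overlap (log2 fold change 2.1), with an adjusted p of 0.209 in edgeR, 0.0238 in DESeq2 and 0.0483 in edgeR over libraries 2 and 3. Rgs5, a defining pericyte marker, was at 0 in Ctl MSC 2 and 3 and at most 0.604 CPM elsewhere. Skeletal or cardiac muscle markers (5 of 7 with 3 or more reads) summed to 1.77 to 4.95 CPM in Ctl MSC against 2.71 to 10.5 CPM in MSC-TPr, and Myf5 was at 0 reads in all 3 MSC-TPr libraries against 2.18, 0.587 and 0.662 CPM. Tnnt2, cardiac troponin T, went the other way and made up most of the sum in MSC-TPr, at 2.42, 0.748 and 0.827 CPM in Ctl MSC 1 to 3 and 2.33, 10.1 and 5.75 CPM in MSC-TPr 1 to 3 (adjusted p = 0.23 in edgeR, 0.0335 in DESeq2 and 0.00149 in edgeR over libraries 2 and 3). The striated relatives of the contractile genes were near or at 0, with Acta1 the only one of 6 to reach 3 reads and Actc1, Myl2 and Myh6 at 0 throughout. Endothelial markers (3 of 5) summed to 0.785 to 3.09 CPM in Ctl MSC against 1.62 to 3.32 CPM in MSC-TPr, with Tie1 at 0. Haematopoietic markers (3 of 5 in the table) summed to 2.54 to 11.3 CPM and 1.16 to 14.7 CPM. The sum was highest in MSC-TPr 1 and mostly from Cd68, a macrophage gene at 14.2 CPM there. The other markers were not highest in MSC-TPr 1: Lyz2 was lowest there at 0.0554 CPM, Cd74 was at 0.443 CPM, and Ptprc and Itgam had 0 reads. MSC markers summed to 1739 to 2760 CPM and 1396 to 2398 CPM, and Nt5e (CD73) was lower in each MSC-TPr library, at 4.03 ± 1.3 against 16.3 ± 4.54 CPM (log2 fold change −2.02), with an adjusted p of 0.079 in edgeR, 2.13e-05 in DESeq2 and 0.00081 in edgeR over libraries 2 and 3. Nt5e does not stand for the MSC markers. Of the 6 tested, 2 had a positive log2 fold change over all 6 libraries and 5 in libraries 2 and 3. There Cd44 rose (log2 fold change 1.88, adjusted p = 0.000205, edgeR). The part of these cells in the levels of the contractile genes was not tested.

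The genes most like Acta2 across the 6 libraries were sought by the root mean square difference of log2 CPM after centring each gene on its mean. Dhrs9, a retinol and steroid dehydrogenase, was closest at 0.221, with 59.5, 37.5 and 35.9 CPM in Ctl MSC against 7.58, 66.7 and 79.9 CPM in MSC-TPr. Myl9 followed at 0.225, the nearest of the contractile genes, and then Myl10 at 0.24 and Ncald at 0.275, both of which stayed near 1 CPM or below. Within the set, Tagln lay at 0.333, Tpm1 at 0.564, Actg2 at 0.579, Tpm2 at 0.637, Cald1 at 1.12 and Cnn1 at 1.22. Cnn1 ranked behind 8523 other genes and had a wider range than Acta2, although it kept the same order of low and high libraries. These distances rest on 6 libraries that share the split described above and carry no test.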

How the data were processed

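RNA-seq counts of 3 Ctl MSC and 3 MSC-TPr libraries were analysed. The authors prepared stranded polyA libraries, and the submitters' processing notes name CASAVA 1.8.2, Trimmomatic 0.35 and TopHat2 2.1.0; reads aligned to mm10 were counted with Htseq-count and deposited as raw counts, without normalization. Lines that name no gene, 13.8% to 20.8% of the reads listed per library, were left out. 0 columns were left unused.

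Counts were tested in R 4.3.3 with edgeR 4.0.16 (TMM, filterByExpr, quasi-likelihood test, group as the only term, Benjamini-Hochberg adjustment over all genes tested). A call required an adjusted p under 0.05 together with an absolute log2 fold change of 0.5 or more. DESeq2 1.42.0, RLE and upper quartile normalization, no filter, no fold threshold, each library left out, the 4 libraries numbered 2 and 3, the replicate block and a cell division covariate were alternatives. Counts were simulated with 200 changed genes among 11974 and the same dispersion for every gene. There edgeR recovered 6 at 2-fold, 171 at 4-fold and 200 at 8-fold with 6 libraries (dispersion 0.124). With 4 libraries (dispersion 0.0168) it recovered 159 at 2-fold. Standard errors are the log2 fold change divided by the square root of F. The actin ratio used a pseudocount of 0.5 reads. Limits from counts cover counting error only.

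The members and gene lists were chosen with earlier results of these data known. Genes named are the 10 members, from each other list up to 2 highest and 2 lowest log2 fold changes among tested genes whose groups do not overlap, any called gene, and the 3 genes most like Acta2. Other genes, such as Srf, Thy1 and Rgs5, were named after their values were seen. The labels do not say that replicates were separate cultures, so p-values measure only the spread between these libraries. Gene positions and exon lengths came from GENCODE on mm10, and promoter sequences from RefSeq.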

Additional observations from a re-analysis of the deposited data

How the results depend on the processing

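Among the contractile genes, 0 were called over all 6 libraries, also with RLE or upper quartile normalization, without the filter, without the fold threshold, with DESeq2, with the cell division covariate and without any 1 library (0 to 0). The exceptions leave out both libraries numbered 1: 8 were called by edgeR in the 4 libraries numbered 2 and 3, 8 there without the filter and 7 with DESeq2, which did not call Myocd, the last 2 settings chosen after seeing the data. Over all genes, 51 were called, with 660 by DESeq2, 4854 in the 4 libraries, 5151 there without the filter, 4564 there by DESeq2, 1455 with the covariate, and 0 to 108 without 1 library (108 without Ctl MSC 1, 0 without Ctl MSC 2, Ctl MSC 3 or MSC-TPr 3, 1 without MSC-TPr 2). Each of the accessory, non-muscle and SRF-related lists had 0 called, with 1 each by DESeq2. In the 4 libraries these lists had 7, 10 and 5 called, likewise without the filter and by DESeq2, and with the covariate 2, 1 and 2. Contractile genes separating by label were 0, with 1 when the filter was dropped (Myocd) and 9 in the 4 libraries. Without 1 library they were 0 to 7: 7 without MSC-TPr 1, 2 without Ctl MSC 1, and 1 without MSC-TPr 2 or MSC-TPr 3. Fewer libraries separate more easily. The share over all genes, 22.6% with 6 libraries, was not counted for the smaller sets, so these counts are not read as particular to the contractile genes.

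The median log2 fold change ranged from 0.23 to 0.99 without 1 library (0.99 without MSC-TPr 1, 0.88 without Ctl MSC 1, 0.23 without MSC-TPr 2, 0.24 without MSC-TPr 3) and kept its sign under the other settings except the covariate, where it was −0.35. The covariate reversed Acta2 (−0.59), Tpm1 (−0.52), Tagln (−0.44), Cnn1 (−0.37), Myl9 (−0.33) and Tpm2 (−0.27), none past the threshold, and the cause was not tested. Tpm1 spanned −0.18 to 0.70 without 1 library. The labels give both groups the same replicate numbers, but same-numbered libraries deviated in opposite directions (correlations −0.765, −0.594 and −0.604). Deviations are from means of 3, so the outlying libraries numbered 1 weigh on every sign. Ctl MSC 2 with MSC-TPr 3 and Ctl MSC 3 with MSC-TPr 2 were also at −0.577. Whether the numbers pair the libraries was therefore not settled. With the replicate block, edgeR called 0 genes in all and 0 contractile genes, and the log2 fold change of Acta2 was 0.04 and of Actg2 0.92.

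Depth limits Myh11 and Myocd. In the simulation, with a dispersion of 0.124 for every gene, 6 of 200 2-fold changes were recovered with 6 libraries. A change of that size would mostly go unseen in a gene of that spread. The 8 tested contractile genes had a median standard error of 0.69, against 0.264 over all genes. Single values ran from 0.186 for Cald1 to 1.32 for Cnn1. The simulated recovery thus does not give the power for single contractile genes.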
